A study of Mus musculus with 4 samples.

Results

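The synaptotagmins are vesicle proteins with paired C2 domains, and several of them bind calcium. Their transcripts were followed in wild-type (WT) and Rest-/- mouse embryonic stem cells (ESCs). The 10 members, taken by symbol from the count table, were Syt1, Syt2, Syt3, Syt4, Syt5, Syt6, Syt7, Syt9, Syt11 and Syt13, out of 26301 genes with an identifier. All 10 had a row. For 8 of them the counts were high enough to be tested for a difference between genotypes, and Syt2 and Syt6 fell under the filter on low counts.

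RNA-seq was done on 2 libraries of the N6 line, labelled WT, and 2 libraries of the N8 line, labelled as REST knockout. Each genotype was 1 ESC line, so a difference between genotypes and a difference between lines cannot be told apart. Both lines shared 1 medium, with serum and LIF, and the last 3 passages, unlike those before, had no fibroblast feeder cells. The study's methods call the 2 libraries of each genotype biological replicates, without saying how the cultures were separated, and the p-values measure the spread between these libraries within 1 line.

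Vesicles fuse with the plasma membrane when SNARE proteins zipper together, and synaptotagmins make that step depend on calcium. On binding calcium, their C2 domains insert into membranes and engage the SNARE complex. Family members differ in calcium affinity, in speed and in the vesicles they serve, and some have lost the residues that bind calcium. REST is a repressor of neuronal genes outside mature neurons. It binds a DNA element called RE1, and the comparison asks which transcripts change in ESCs that lack it. Pluripotent cells have no synapses.

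The libraries held 30953863 and 27061056 assigned reads in WT, and 25461270 and 22293966 in Rest-/-. Counts are given below as CPM, counts scaled to a library of 1000000 reads after TMM scaling, a correction for library composition. A count of 3, taken as the floor of detection, was worth 0.0969 to 0.135 CPM. Rest itself was counted 7908 and 6233 times in WT, and 4244 and 3890 times in Rest-/-, a log2 fold change of -0.52 ± 0.13 (SE) with adjusted p = 0.526 (edgeR's quasi-likelihood test, Benjamini-Hochberg). Reads were summed over the whole gene, so this does not show which exons of Rest remain. The summed CPM of 8 pluripotency markers was 4305 to 4339 in WT and 3642 to 3850 in Rest-/-, and none of the 8 was at the floor in all 4 libraries. Nanog, Klf4 and Zfp42 had both Rest-/- libraries below both WT libraries, Zfp42 by the most at 704.5 and 541.1 CPM in WT against 258.1 and 226.4 CPM in Rest-/-, while Utf1 had both above, so 3 of 8 lay below and 1 of 8 above, against 15.4% and 16.5% of all tested genes.

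None of the 8 tested members passed an adjusted p of 0.05 in edgeR's quasi-likelihood test, where 0.0583% of the 15444 tested genes did. At an unadjusted p under 0.05 there was 1 member, Syt4, against 6.71% of all tested genes. Syt4 was also the 1 member with an adjusted p under 0.05 in DESeq2, where 1.54% of the tested genes passed, and in edgeR's exact test, where 1.77% passed with tag-wise and 2.22% with common dispersion. Syt4 stood apart from the rest of the family, with a fitted ratio of Rest-/- to WT of 14.8. The other 7 tested members had log2 fold changes between 0.0013 and 0.30. Both Rest-/- libraries lay above both WT libraries for 2 of the 8 tested members, Syt4 and Syt11, against 16.5% of all tested genes. No tested member had both Rest-/- libraries below both WT libraries, against 15.4% of all tested genes. The median log2 fold change of the tested members was 0.13, and that of all tested genes was -0.0047. The fitted change was above 0 for 8 of 8 members and for 49.2% of all tested genes. For Syt1, Syt3, Syt5, Syt7, Syt9 and Syt13 that sign turned when 1 of the libraries was left out, and only Syt4 and Syt11 kept it in each alternative that was run.

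**Figure D1:**
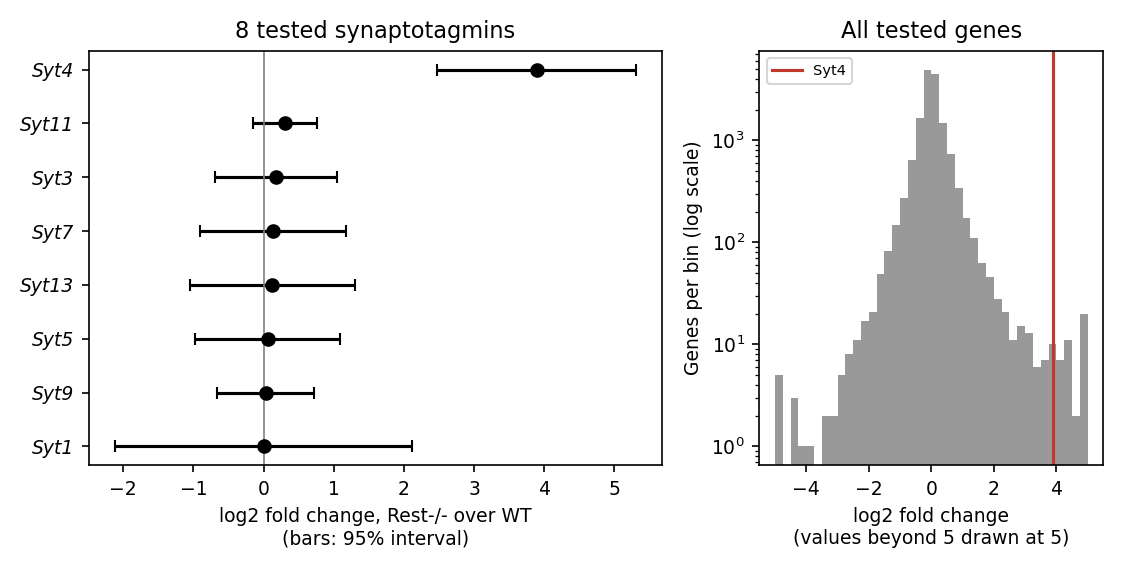
Left, the log2 fold change (Rest-/- over WT) of the 8 tested synaptotagmins, with points for the fitted value and bars for the 95% interval. Right, the log2 fold changes of all 15444 tested genes as a histogram with a log-scaled count axis, with a line at Syt4. The interval of Syt4 lies above 0, from 2.47 to 5.31, while the intervals of the other 7 include 0, and the line of Syt4 lies in the upper tail of all tested genes.

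Syt1, Syt2, Syt9 and Syt5 were taken first, since Syt1 and Syt2 are the fast calcium sensors of synchronous transmitter release and Syt9 has been described as a fast sensor in some forebrain neurons. Syt1 (chromosome 10, 107934706 to 108448038, minus strand, mm9) was close to silent, with counts of 10 and 26 in WT against 9 and 21 in Rest-/-. Its log2 fold change was 0.0013 ± 0.80 (SE), with a 95% interval from -2.12 to 2.12. Syt2 (chromosome 1, 136605877 to 136649726, plus strand) was counted 8 and 3 times in WT, and 4 and 4 times in Rest-/-, and was not tested. Neither of the sensors best known from synapses was thus found above 1 CPM in any library of either genotype.

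Syt9 was the most abundant member of the family in both genotypes. The names Syt5 and Syt9 have been exchanged between publications, and they are used here for Entrez genes 53420 and 60510, respectively. Syt9 (chromosome 7, 114514242 to 114692170, plus strand) had 47.0 and 67.8 CPM in WT and 49.9 and 67.1 CPM in Rest-/-. The groups overlapped, and its log2 fold change of 0.028 had a 95% interval from -0.67 to 0.72. Syt5 (chromosome 7, 4491370 to 4498169, minus strand) had 3.71 and 6.87 CPM in WT and 5.53 and 5.46 CPM in Rest-/-. The WT libraries of Syt5 enclosed both Rest-/- libraries, and the log2 fold change was 0.057 with a 95% interval from -0.98 to 1.09.

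Syt3, Syt6 and Syt7 also bind calcium but serve slower or non-synaptic steps. Syt7 is a slow sensor of high affinity, used in asynchronous release, in facilitation and in the exocytosis of lysosomes. Syt7 (chromosome 19, 10463580 to 10527671, plus strand) had 11.9 and 18.1 CPM in WT and 11.8 and 21.2 CPM in Rest-/-. Both genotypes had the lower value in replicate 1, the groups overlapped, and the log2 fold change was 0.13 with a 95% interval from -0.91 to 1.18. The antisense lincRNA Gm17289 shares up to 415 exonic bases with Syt7 and has no row in the table. Syt3, which takes part in the internalisation of glutamate receptors, also had overlapping groups. Syt3 (chromosome 7, 51639472 to 51655557, plus strand) had 5.07 and 6.65 CPM in WT and 5.46 and 7.77 CPM in Rest-/-, with a log2 fold change of 0.17 and a 95% interval from -0.69 to 1.04.

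Syt6, known from the exocytosis of the sperm acrosome, was a low transcript in which the libraries separated by genotype. Syt6 (chromosome 3, 103379154 to 103449490, plus strand) had counts of 3 and 3 in WT, at the floor, against 13 and 8 in Rest-/-. Both Rest-/- values lay above both WT values, at 0.503 and 0.361 CPM against 0.0969 and 0.112 CPM. The ratio of summed counts scaled to depth was 4.21, with a 95% counting interval from 1.64 to 12.75 that covers counting error only. The filter left Syt6 out of the test, so the separation has no p-value. An Atg4a pseudogene on the opposite strand shares up to 1006 exonic bases with Syt6, and without a stated strand setting reads from the 2 cannot be told apart.

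Syt4, Syt11 and Syt13 are the members whose C2 domains bind calcium poorly or not at all. Syt4 is carried on dense-core vesicles, where it modulates the release of peptides and growth factors, and it has an altered calcium site in its first C2 domain. Syt4 (chromosome 18, 31597462 to 31607069, minus strand) was counted 69 and 23 times in WT, and 668 and 451 times in Rest-/-. On the CPM scale these were 2.23 and 0.859 in WT and 25.9 and 20.4 in Rest-/-. The lower Rest-/- library was thus well above the higher WT library. The mean went from 1.54 ± 0.969 to 23.1 ± 3.89 CPM (SD, n = 2 each), and the fitted ratio was 14.8. In bulk RNA, more cells with the transcript and more transcript per cell cannot be told apart.

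The log2 fold change of Syt4 was 3.89 ± 0.53 (SE), which ranked 47th from the top among the 15444 tested genes. The adjusted p was 0.185 in edgeR's quasi-likelihood test with Benjamini-Hochberg adjustment, with an unadjusted p of 0.00114. On log2(CPM + 0.5), Syt4 was higher in Rest-/- by 3.27 within replicate 1 and by 3.94 within replicate 2. Leaving out each library in turn gave log2 fold changes from 3.37 to 4.74, with an adjusted p of 0.00286 without WT replicate 1, 0.00773 without WT replicate 2, 0.0155 without Rest-/- replicate 1 and 0.0112 without Rest-/- replicate 2 (edgeR's quasi-likelihood test). In each of these fits one genotype was a single library, assumed to vary like the 2 libraries of the other, so these p-values add no support to that of the 4 libraries. The lincRNA Gm16871 on the opposite strand shares up to 575 exonic bases with Syt4, and it has no row of its own in the table, so reads from the 2 cannot be told apart.

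Markers of other cell types were read beside Syt4, and their part in the Syt4 value was not tested. The summed CPM of 6 endocrine markers was 20.5 and 17.0 in WT and 158.5 and 149.8 in Rest-/-, carried mostly by Chga, while the hormone genes Ins1, Ins2 and Gcg were at the floor in all 4 libraries. All 3 tested endocrine markers, Chga, Pcsk1 and Neurog3, had both Rest-/- libraries above both WT libraries, which 16.5% of all tested genes did. The summed CPM of 8 neuron markers was 339.2 and 422.7 in WT and 373.6 and 459.3 in Rest-/-, a sum carried mostly by Tubb3 and Stmn2, whose libraries overlapped. Of the 7 tested neuron markers, 3 (Elavl3, Rbfox3 and Elavl4) had both Rest-/- libraries above both WT libraries and 0 had both below, against 16.5% and 15.4% of all tested genes. Elavl3, an RNA-binding protein of neurons, had 19.7 and 22.3 CPM in WT against 66.0 and 67.2 CPM in Rest-/-.

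The summed CPM of 8 neural progenitor markers was 66.8 and 162.4 in WT and 134.3 and 156.6 in Rest-/-, carried mostly by Nes, with Neurog2 at the floor in all 4 libraries. Of the 5 tested, 2 (Olig2 and Pax6) had both Rest-/- libraries below both WT libraries and 0 had both above, against 15.4% and 16.5% of all tested genes. Olig2, an oligodendrocyte and motor neuron lineage factor, had counts of 158 and 172 in WT against 1 and 0 in Rest-/-, at the floor. The summed CPM of 8 fibroblast markers was 27.2 and 19.0 in WT and 93.2 and 19.2 in Rest-/-, carried mostly by collagen genes in Rest-/- replicate 1, with Lum at the floor in all 4 libraries. Of the 6 tested, 1 (Twist2) had both Rest-/- libraries above and 1 (Thy1) had both below, shares close to those of all tested genes. Twist2, a low transcript, was counted 8 and 4 times in WT, and 23 and 14 times in Rest-/-.

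Syt11 is the closest relative of Syt4, regulates endocytosis and vesicle trafficking, and does not bind calcium. Syt11 (chromosome 3, 88548622 to 88636219, minus strand) had 38.4 and 46.8 CPM in WT and 53.7 and 51.2 CPM in Rest-/-. The groups did not overlap, but the gap between them was smaller than the distance between the 2 WT libraries. Its log2 fold change was 0.30 ± 0.17 (SE), with a 95% interval from -0.15 to 0.75 and an adjusted p of 0.978 in edgeR's quasi-likelihood test. The intervals of Syt4 and Syt11 did not overlap, although these relatives were the highest-ranked members. Syt13, an atypical member linked to insulin secretion and endocrine development, had 6.46 and 14.7 CPM in WT and 11.4 and 11.6 CPM in Rest-/- (chromosome 2, 92755255 to 92796215, plus strand). Its WT libraries enclosed both Rest-/- libraries. The log2 fold change of Syt13 was 0.12, with a 95% interval from -1.05 to 1.30.

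**Figure D2:**
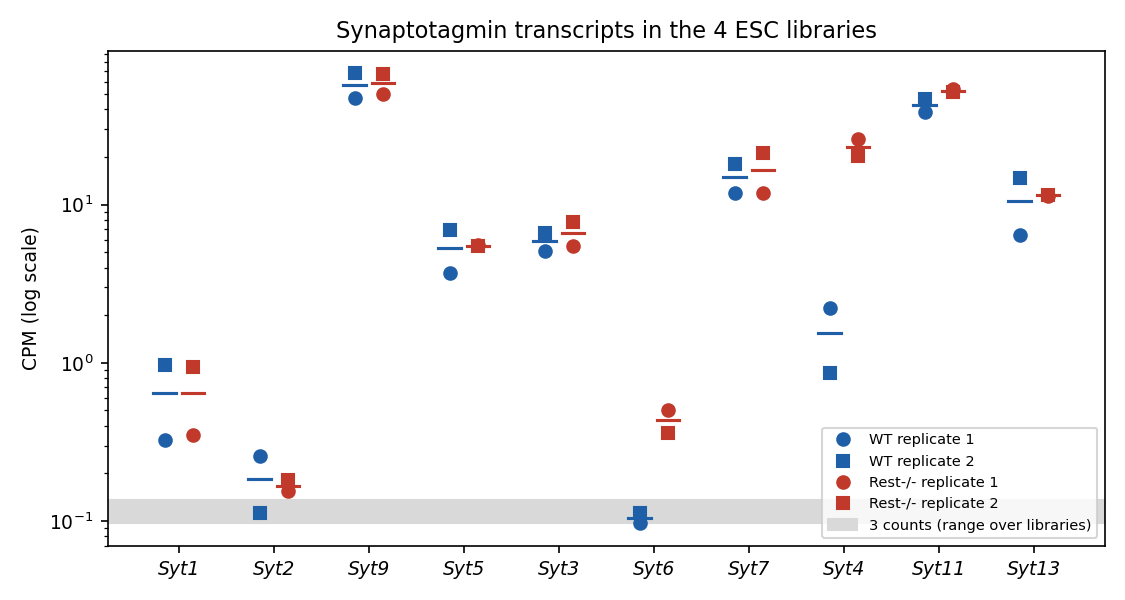
CPM of the 10 synaptotagmins in the 4 libraries on a log scale, with circles for replicate 1, squares for replicate 2, horizontal lines for the mean of each genotype, and a grey band for the CPM worth of 3 counts. Syt4 and Syt6 are the members in which both Rest-/- points lie far above both WT points, and Syt2 and the WT points of Syt6 lie at or near the band.

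Replicates differed for several members. In WT, replicate 2 had 3.01 times the CPM of replicate 1 for Syt1, 2.27 times for Syt13 and 1.85 times for Syt5. The same ratio in Rest-/- was 2.72 for Syt1, 1.02 for Syt13 and 0.987 for Syt5. Only for Syt1 among these 3 was the shift between replicates seen in both genotypes. The fitted intervals of these members were wide, and a p above the threshold does not show that their levels were equal in both genotypes.

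Levels of different members were compared as RPKM, reads per kilobase of exonic length, scaled to depth as for CPM. In WT, Syt9 led with 14.4 ± 3.70 RPKM (SD, n = 2), followed by Syt11 with 8.13 ± 1.14. Syt5, Syt13, Syt7 and Syt3 formed a middle group from 3.03 down to 1.88 RPKM, in which neighbours overlapped between libraries. Syt4 came next at 0.396 ± 0.248 RPKM, and Syt1, Syt2 and Syt6 lay under 0.08 RPKM. In WT, both libraries of Syt4 were below both libraries of Syt3 and above both libraries of Syt1.

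In Rest-/- the order was the same apart from Syt4 and Syt6. Syt4 stood at 5.92 ± 0.996 RPKM, below both libraries of Syt11 at 10.01 ± 0.330 and above both libraries of Syt5 at 3.15 ± 0.0292. Among all genes with a length, Syt4 went from the 42.0th to the 66.5th percentile of RPKM. Syt6 moved above Syt2, at 0.0750 against 0.0244 RPKM, and its libraries overlapped those of Syt1. These levels depend on the gene models used for length, and those of Syt1 and Syt6 shift most with them.

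As a share of the family's summed RPKM, Syt4 made up 2.12% and 0.566% of the 2 WT libraries, against 16.9% and 11.9% of the 2 Rest-/- libraries. The summed RPKM of the 10 members was 26.98 and 38.9 in WT and 39.2 and 43.8 in Rest-/-. Without Syt4 it was 26.4 and 38.7 in WT and 32.6 and 38.6 in Rest-/-. With Syt4 both Rest-/- sums were above both WT sums, by little for the nearest pair of libraries, and without it the groups overlapped.

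**Figure D3:**
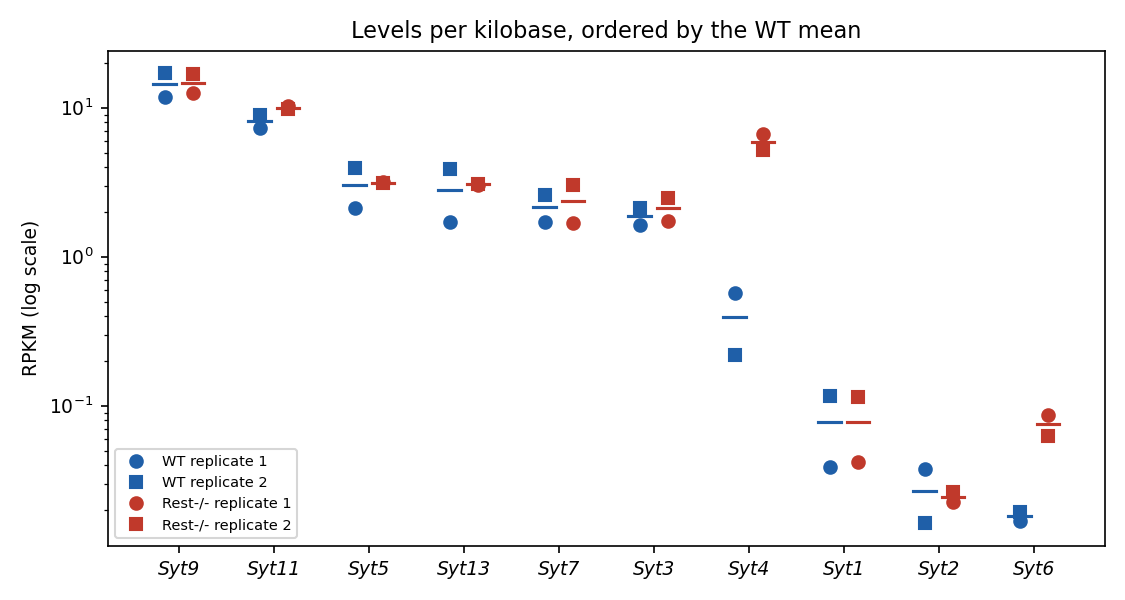
RPKM of the 10 synaptotagmins on a log scale, ordered by the WT mean, with circles for replicate 1, squares for replicate 2 and lines for genotype means. Syt9 and Syt11 lead in both genotypes, and Syt4 moves from below Syt3 in WT to above Syt5 in Rest-/-.

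Letters of the RE1 element were then searched in mm9 near the members' start sites, since REST binds this element. The motif was CAGNACCNNGGACAG, of 15 bases and 12 informative positions, read on both strands. A match at all 12 positions lay within 20 kb of a start site for 3 of the 10 members, Syt4, Syt6 and Syt7, and for 3.76% of 21926 annotated genes of the table. Syt9 held a further match inside an intron, 22178 bp from the nearest start site. The matches of Syt6, Syt7 and Syt9 are shown with 13 flanking bases on each side, since these members share the letters and differ in their RNA values. That of Syt14, a synaptotagmin outside the 10 members with a match close to its start, is shown for comparison. Capitals mark the 15 bases of the motif.
Syt6, chr3:103377901-103377941, plus strand: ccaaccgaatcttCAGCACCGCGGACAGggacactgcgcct
Syt7, chr19:10477760-10477800, plus strand: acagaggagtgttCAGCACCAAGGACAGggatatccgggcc
Syt9, chr7:114536462-114536502, minus strand: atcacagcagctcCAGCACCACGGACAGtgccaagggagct
Syt14, chr1:194862339-194862379, plus strand: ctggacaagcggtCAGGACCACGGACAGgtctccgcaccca

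The Syt6 match lay 1233 bp upstream of the nearest start site, outside the gene and on its strand, beside a transcript with 13 and 8 counts in Rest-/- against 3 and 3 in WT. The Syt7 match lay in an intron, on the strand of the gene and 13807 bp downstream of the nearest annotated start site, and the Syt7 libraries overlapped between genotypes. The intronic match of Syt9, on the strand opposite to the gene, went with a log2 fold change of 0.028. The Syt14 match lay 448 bp upstream of the start, and Syt14 was counted 223 and 172 times in WT, and 234 and 176 times in Rest-/-, a log2 fold change of 0.32 ± 0.25 (SE). Among the synaptotagmins, a full match within 1 kb of a start site was thus found in Syt4 and in Syt14. Their fitted changes were 3.89 and 0.32. Of the genes named below, Rph3a, Snap25 and Syp also had one, at 105, 819 and 24 bp, with fitted changes of 2.94, 3.98 and 3.21. Unc13a, Cplx1 and Stx1a, with fitted changes of 3.95, 3.91 and 1.72, had none within 20 kb. Of the endocrine and neuron markers, only Chga had a full match within 1 kb, at 278 bp, with a fitted change of 3.20. Rbfox3 and Stmn2 had one at 1246 and 1288 bp, with fitted changes of 1.29 and -0.18. A match is only a likeness of letters, and occupancy by REST was not analysed here.

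The Syt4 match, at chr18:31606836-31606850 on the minus strand, lay 226 bp downstream of the start in the first exon, on the strand of the gene. That stretch is coding sequence in one of the 2 annotated transcripts and 5′ UTR in the other. Within 1 kb of a start site a full match was found for 1 of the 10 members, Syt4, and for 0.602% of the annotated genes. The 103 tested genes with such a match showed a median change of 1.12 on the log2 scale, and the 628 tested genes with one within 20 kb had a median of 0.11. Allowing 1 mismatch, 7 of the 10 members and 39.4% of the annotated genes had a match within 20 kb. Counting matches within 20 kb or anywhere inside the gene, 4 of the 10 members and 4.74% of the annotated genes had one.

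**Figure D4:**
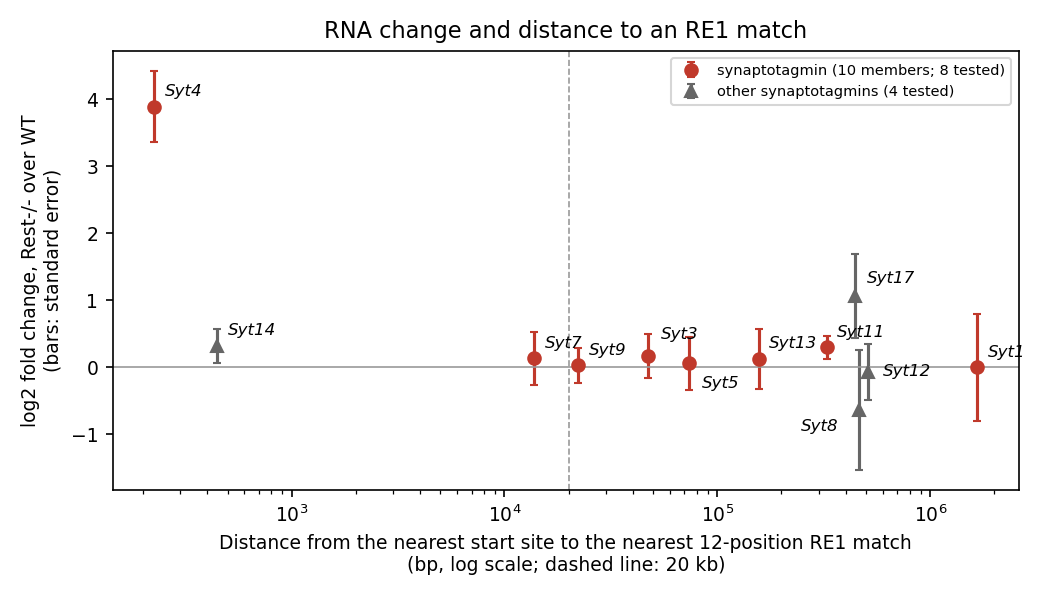
Log2 fold change (Rest-/- over WT, bars for the SE) against the distance in bp from the nearest start site to the nearest RE1 match at 12 positions, on a log scale, for 8 tested members (circles) and 4 other tested synaptotagmins (triangles), with a dashed line at 20 kb. Syt4, at 226 bp, has a log2 fold change of 3.89, and Syt14, at 448 bp, has one of 0.32.

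The remaining genes of the pathway were read from 3 lists. Of 7 other synaptotagmins, 4 were tested and none passed an adjusted p of 0.05 in edgeR's quasi-likelihood test, against 0.0583% of all tested genes, with a median log2 fold change of 0.13. For 2 of the 4, Syt14 and Syt17, both Rest-/- libraries lay above both WT libraries, which 16.5% of all tested genes did, and 0 of the 4 had both below. Syt17 was counted 8 and 21 times in WT, and 28 and 24 times in Rest-/-, a log2 fold change of 1.06 ± 0.63 (SE). Syt12 was counted 206 and 108 times in WT, and 162 and 87 times in Rest-/-, with overlapping libraries and a log2 fold change of -0.07. The values of Syt4 therefore had no match in size among the other tested members of the extended family.

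Among 14 other proteins with C2 domains of this kind, 12 were tested and none passed that threshold, against 0.0583% of all tested genes, with a median log2 fold change of 0.14. Both Rest-/- libraries lay above both WT libraries for 3 of the 12 and below for 3 (Esyt2, Sytl4 and Sytl5, named after their values were seen), against 16.5% and 15.4% of all tested genes. Rph3a, which encodes the Rab3 effector rabphilin on synaptic vesicles, was counted 20 and 6 times in WT, and 112 and 55 times in Rest-/-. Both Rest-/- libraries lay above both WT libraries, and the log2 fold change was 2.94 ± 0.65 (SE) with an adjusted p of 0.436 in edgeR's quasi-likelihood test. Rph3a passed the threshold in DESeq2 and in edgeR's exact test. Sytl2, a synaptotagmin-like Rab27 effector, was counted 31 and 22 times in WT, and 60 and 27 times in Rest-/-, and a log2 fold change of 0.96. Sytl1, of the same group, was counted 551 and 277 times in WT, and 354 and 149 times in Rest-/-, and a log2 fold change of -0.46 with overlapping libraries.

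The vesicle fusion partners comprise SNAREs, their chaperones, priming factors, complexins and vesicle membrane proteins. Of 25 listed genes, 22 were tested, 1 passed the adjusted threshold as higher in Rest-/- and none as lower, against 0.0583% of all tested genes in either direction, with a median log2 fold change of 0.15. Both Rest-/- libraries lay above both WT libraries for 8 of the 22 and below for 2, against 16.5% and 15.4% of all tested genes. The gene that passed was Unc13a, which encodes the priming factor Munc13-1. Unc13a was counted 516 and 396 times in WT, and 6998 and 4807 times in Rest-/-, a log2 fold change of 3.95 ± 0.19 (SE) with an adjusted p of 0.0374 (edgeR's quasi-likelihood test, Benjamini-Hochberg). Unc13a missed that threshold only when 10 counts were required in every library. Snap25, a neuronal SNARE of the plasma membrane that synaptotagmins bind, was counted 13 and 18 times in WT, and 251 and 166 times in Rest-/-. Its log2 fold change was 3.98 ± 0.41 (SE) with an adjusted p of 0.109 in the same test. Snap25 passed the threshold in DESeq2 and in edgeR's exact test, as Syt4 did, and also when only 1 count was required, where Syt4 did not. Cplx1, Syp and Stx1a, named after their values were seen, passed in DESeq2 and in the exact test too, with log2 fold changes of 3.91, 3.21 and 1.72 in the quasi-likelihood fit. They encode a complexin, the vesicle protein synaptophysin and the SNARE syntaxin 1A. Sv2c, a vesicle glycoprotein, had the most negative fitted change on the list among genes with at least 1 CPM in the higher genotype, at -0.18 with overlapping libraries.

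The tested genes with values most like those of Syt4 were taken by Euclidean distance over the log2(CPM + 0.5) values of the 4 libraries. They were A230078I05Rik at a distance of 0.865, Calml4 at 1.15 and Nrsn1 at 1.17. Calml4 encodes a calmodulin-like protein and Nrsn1 a vesicle membrane protein of neurons. A230078I05Rik was counted 55 and 36 times in WT, and 455 and 330 times in Rest-/-. Calml4 was counted 65 and 28 times in WT, and 302 and 391 times in Rest-/-. Nrsn1 was counted 66 and 60 times in WT, and 445 and 434 times in Rest-/-. Their log2 fold changes were 3.37, 3.21 and 3.07, a size that the choice by likeness to Syt4 sets, and none of the 3 had a full RE1 match within 20 kb of a start site.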

How the data were processed

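The authors extracted total RNA from the ESCs, prepared 4 TruSeq libraries and sequenced them on an Illumina HiSeq. The submitters' processing notes name mm9, Subread and featureCounts, and the version and strand setting were not given in the sources used here. The values they deposited are raw counts per Entrez gene, without normalization. Of 26669 rows, 368 had no identifier or values and were left out. Symbols were checked with RefSeq (GRCm38.p6, names only), which matched 24191 identifiers, and gene positions were taken from GENCODE M1 (NCBIM37, the mm9 assembly), where 21926 matched 1 gene.

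Counts were tested in R 4.3.3 with edgeR 4.0.16 (TMM, filterByExpr, quasi-likelihood test on genotype, 2-sided, prior count 0.125, Benjamini-Hochberg adjusted p under 0.05 over 15444 genes). Intervals are 95% intervals. RPKM used the exonic length over all transcripts. Depth was 22293966 to 30953863 assigned reads, and the floor was 3 counts. DESeq2 1.42.0, edgeR's exact test, other scalings and filters, left-out libraries and the replicate number as a block were alternatives. RE1 letters were searched with Python 3.11.15. The test and the search were tested on simulated data.

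Named list genes are those past the threshold plus, where the higher genotype averaged 1 CPM or more, the 2 with the most positive and the 1 with the most negative log2 fold change. The members and the lists were chosen with earlier results of these data known.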

Additional observations from a re-analysis of the deposited data

How the results depend on the processing

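Counts of called genes depended on the test more than the fitted changes did. Over all genes 9 were called, against 53 with only 1 count required, 3 with 10 counts in every library, 274 in edgeR's exact test (tag-wise dispersion), 343 in the same test at a common dispersion, 238 in DESeq2, and 60 to 113 with a library left out. Of the members, 1 (Syt4) was called in both exact tests, and in DESeq2, and none in the other scalings and filters, where its adjusted p was 0.0620 to 0.265. With a library left out, 1 to 1 member (Syt4) passed, but one genotype is then a single library assumed to vary like the other, so these fits say nothing firm about the call. Other C2 proteins had 1 call in both exact tests and in DESeq2. Vesicle fusion partners had 3 without the filter, 0 with 10 counts in every library, 5 and 6 in the exact tests, 5 in DESeq2 and 4 to 4 with a library left out. Same-numbered replicates deviated together (r = 0.807 over 15444 genes, 2 pairs, across genes), but no source links the numbers. With the replicate number as a block, 2621 genes, 1 member (Syt4, log2 fold change 3.93, adjusted p = 3.83e-05), 2 other C2 proteins and 7 fusion partners were called, and Syt11 had an adjusted p of 0.0617 (edgeR's quasi-likelihood test). The fitted change of Syt1 was -0.0038 with RLE scaling, -0.0062 without the filter and -0.0023 in DESeq2. With a library left out it was -0.88 to 0.98 for Syt1, -0.11 to 0.41 for Syt3, -0.33 to 0.57 for Syt5, -0.35 to 0.50 for Syt7, -0.22 to 0.32 for Syt9 and -0.36 to 0.83 for Syt13. RE1 matches were found near 1 member within 1 kb and near 7 with 11 or more positions. The list counts and the RE1 search inside genes were added after seeing the data. The causes of these differences were not tested.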
